A study of Mus musculus with 29 samples.

Results

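The collagen genes of the mouse were followed through the peritoneal dissemination model of gastric cancer. All rows of the count table whose symbol has the form Col, a number, a and a number were taken, whatever their values. They were 44 genes of 24421 in the table. By the kind of structure they build, 11 belong to the fibrillar collagens, 8 to the basement membrane and 25 to other classes, namely 6 type VI chains, 9 fibril-associated collagens, 3 short-chain network collagens, 1 anchoring fibril collagen, 4 transmembrane collagens and 2 remaining members.

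Female C57BL/6 J mice, aged 5 to 6 weeks at the start, received YTN16 cells, a transplantable gastric cancer line that grows in immunocompetent mice, by intraperitoneal injection on day 0, and all 29 mice described here carried this graft. At 3wk (day 21) there were 5 untreated mice, which were given PBS, and 5 mice under dual ICI, the combination of anti-PD1 (10 mg/kg) and anti-CTLA4 (5 mg/kg) antibodies injected on days 5, 8 and 12. At 5wk (day 35), with further injections on days 21 and 28, there were 5 untreated mice, 5 under anti-PD1 alone, 4 under anti-CTLA4 alone and 5 under dual ICI. Of the last, mice 1 and 5 are called uncured and mice 2, 3 and 4 cured, because macroscopic dissemination had gone from the latter, on the assumption that the number of a library is the number of the mouse. Of the anti-PD1 mice, 1 of 5 was cured, and the labels do not say which. Each library came from 1 mouse. The labels call the tissue tumor, and by the methods it was stripped peritoneum with or without nodules, so that a cured mouse gave peritoneum without visible tumor. The library names of the mice at 3wk and at 5wk come from separate number series of the sequencing provider.

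Collagens are secreted or membrane-bound proteins whose chains wind into helical trimers. Type I and type III form the tensile fibrils of connective tissue, with type V inside the fibrils limiting their width, while type IV forms the sheet-like network of the basement membrane, on which epithelia, vessels and muscle fibres rest. Type VI makes beaded filaments around cells, fibril-associated collagens such as types XII and XIV sit on the surface of fibrils, and the short-chain type VIII forms networks in vessel walls and in remodelling stroma. In tumors, most fibrillar collagen is made by fibroblasts, and the peritoneum itself is a thin layer of mesothelium on collagen-rich tissue over muscle.

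The genes of the type IV chains lie in pairs that point away from each other, so that partner chains share a start region. This region is shown for 2 pairs, together with the stretch before Col8a1, because the results turn on these genes. Sequences and positions are those of RefSeq on GRCm38.p6, in which 35 of the 44 genes had an entry for the start region, and capitals mark GGGCGG or its reverse complement CCGCCC. The starts of Col4a1 and Col4a2 overlap at chr8:11312805-11312826 (22 bases, plus strand), the starts of Col4a4 and Col4a3 leave a gap at chr1:82586850-82586920 (71 bases, minus strand), and the 250 bases before Col8a1 are chr16:57754738-57754987 (minus strand).
Col4a1 and Col4a2, overlap of the starts: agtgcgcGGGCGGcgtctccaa
Col4a4 and Col4a3, gap between the starts: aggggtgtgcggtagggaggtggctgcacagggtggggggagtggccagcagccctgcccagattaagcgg
Col8a1, bases before the start: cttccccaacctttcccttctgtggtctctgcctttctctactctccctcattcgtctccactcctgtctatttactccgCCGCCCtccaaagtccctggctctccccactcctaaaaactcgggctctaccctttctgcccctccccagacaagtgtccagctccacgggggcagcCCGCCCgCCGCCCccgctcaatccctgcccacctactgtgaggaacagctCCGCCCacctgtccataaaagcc
The CCAAT box, the motif GGGCGG and the TATAAA box were each searched on both strands. The overlap of Col4a1 and Col4a2 held 1 match of GGGCGG, the gap between Col4a4 and Col4a3 held none of the 3 motifs, and the stretch before Col8a1 held 4 matches of GGGCGG, 170, 73, 66 and 23 bases before the start. Among 32851 windows of 250 bases before a start, 32.7% held GGGCGG, 4.09% held it 4 times or more, 33.8% held CCAAT and 12.4% held TATAAA. The GC content of the 3 stretches was 72.7%, 69.0% and 60.8%, and the median over all windows was 52.4%. Only the stretch before Col8a1 has the length of these windows, so the 2 shorter ones are not directly comparable with them. The match of a motif is a description of these letters. In the GENCODE annotation of the same build, the whole genes that the results turn on lie with Col1a1 at chr11:94936224-94953042, Col3a1 at chr1:45311538-45349706, Col4a3 at chr1:82586921-82722059, Col6a3 at chr1:90765923-90843971, Col8a1 at chr16:57624258-57754737, Col12a1 at chr9:79598991-79718831 and Col17a1 at chr19:47646344-47692094.

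Library totals lay between 25989217 and 31219650 counts. Levels are given as CPM, a gene's count scaled to a common library size, with TMM scaling over all 29 libraries. Tests are edgeR quasi-likelihood tests with Benjamini-Hochberg adjustment over all genes, and a gene was called at an adjusted p under 0.05. The TMM factors were 0.693 to 0.723 in the cured mice and fell as low as 0.687 in anti-PD1 mouse 5 and 0.792 in untreated mouse 2 at 5wk. In these same 5 libraries a list of 22 skeletal muscle genes took 22.1% to 25.1% of all counts, with group means of 7.09% to 14.6% elsewhere. A list of 14 gastric epithelial genes summed to 22.4 to 99.6 CPM in the cured mice, to 64.4 in anti-PD1 mouse 5, and to 849 or more in every other library. Of its genes, Gkn1, Gkn2, Tff1 and Muc5ac were at 0 in all 3 cured mice, but each also reached 0 in other groups. Gkn3 had 33 to 48 counts in cured and 24 to 107 in uncured mice, and Muc6 13 to 44 and 21 to 33, so that these 2 overlapped. The list of 6 activated fibroblast or smooth muscle genes summed to 317 to 321 CPM in the cured mice and to 339 in anti-PD1 mouse 5. The lowest other library stood at 375, with group means of 481 to 643 outside the cured mice. None of the genes of this list was at 0 in the cured mice. The list of 9 fibroblast genes summed to 1032 to 1240 CPM in the cured mice and to group means of 642 to 1071 elsewhere, but on library totals to 746 to 860 and 674 to 1062, so that its place depends on the scaling. Between cured and untreated mice at 5wk, 5 of 8 tested fibroblast genes were called higher and 1 lower, and of the activated list 0 higher and 3 lower of 6. Pericyte genes rose in 4 of 5 and fell in 0 (mean summed level 643 CPM in cured and 281 in untreated mice), Schwann cell genes rose in 2 of 4 and fell in 0 (423 and 201), endothelial genes rose in 2 of 7 and fell in 0 (618 and 458), and mesothelial genes rose in 1 of 6 and fell in 3 (128 and 379), where edgeR called 18.0% of all genes as higher and 26.7% as lower. Muscle genes were higher in 10 of 22, adipocyte genes in 1 of 6, and of 6 macrophage genes 0 were called. On library totals the mean sum of the endothelial list was 440 CPM in cured and 477 in untreated mice, in the other direction. The adipocyte list turned as well, from 998 and 804 CPM with TMM to 708 and 794, so that the place of both depends on the scaling. These lists moved with the cured group, and their part in the collagen values below was not tested. In such bulk tissue, fewer cells of a type and less RNA per cell cannot be told apart.

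Collagen genes took 1.89% ± 0.61 of all counts in untreated mice at 3wk (SD, n = 5) and 1.62% ± 0.43 under dual ICI at 3wk (n = 5). At 5wk they took 1.08% ± 0.40 in untreated mice (n = 5), 1.43% ± 0.45 under anti-PD1 (n = 5), 1.32% ± 0.23 under anti-CTLA4 (n = 4), 1.61% ± 0.48 in uncured mice (n = 2) and 0.556% ± 0.019 in cured mice (n = 3). The cured mice lay between 0.543% and 0.578%, below every other library, but untreated mouse 2 at 5wk (0.585%) and anti-PD1 mouse 5 (0.656%) were close to them. With the muscle genes left out of the total the cured mice stood at 0.733% ± 0.021, with a highest value of 0.756% that passed untreated mouse 2 at 0.751%. On TMM-scaled library sizes they stood at 0.781% ± 0.024 against 0.993% ± 0.249 in untreated mice at 5wk. There untreated mouse 2, at 0.738%, lay below all 3 cured mice.

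**Figure D1:**
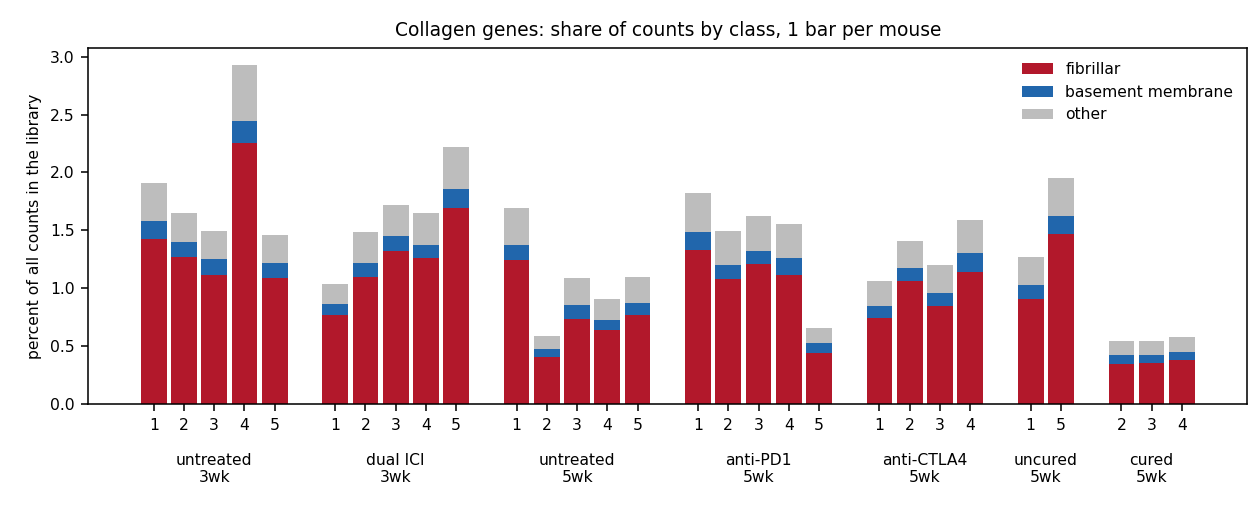
Each bar is 1 mouse and shows the percent of all counts in its library that fell on collagen genes, split into fibrillar, basement membrane and other collagens. The 3 cured mice have the shortest bars, with 0.543% to 0.578%, and the tallest bar is untreated mouse 4 at 3wk with 2.93%.

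The makeup of the collagen counts differed as well. Fibrillar genes held 64.9% ± 0.7 of the collagen counts in cured mice (SD, n = 3), with group means of 70.5% to 75.6% elsewhere, and Col1a1, Col1a2 and Col3a1 together held 57.4% ± 1.1 against group means of 63.5% to 69.1%. Basement membrane genes held 12.9% ± 0.5 in cured mice and 8.02% to 9.57% on average elsewhere, but anti-PD1 mouse 5 stood at 13.1%, within the range of the cured mice. These shares have no test, and a share of a fixed total must rise when another falls.

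Per kilobase of exon, the mean CPM of Col1a1 was highest in every group but dual ICI at 3wk, where Col3a1 stood at 495.6 and Col1a1 at 494.3, a difference far smaller than their spread. Col1a1, Col3a1 and Col1a2 were followed in each group by Col6a1 and Col4a1. In the cured mice these 5 genes stood at 204, 167, 121, 108 and 60.2 CPM per kilobase, and in untreated mice at 3wk at 630.4, 539, 281, 201 and 88.7. The sixth place went to Col6a2, or to Col4a2 in the anti-CTLA4 and cured mice.

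**Figure D2:**
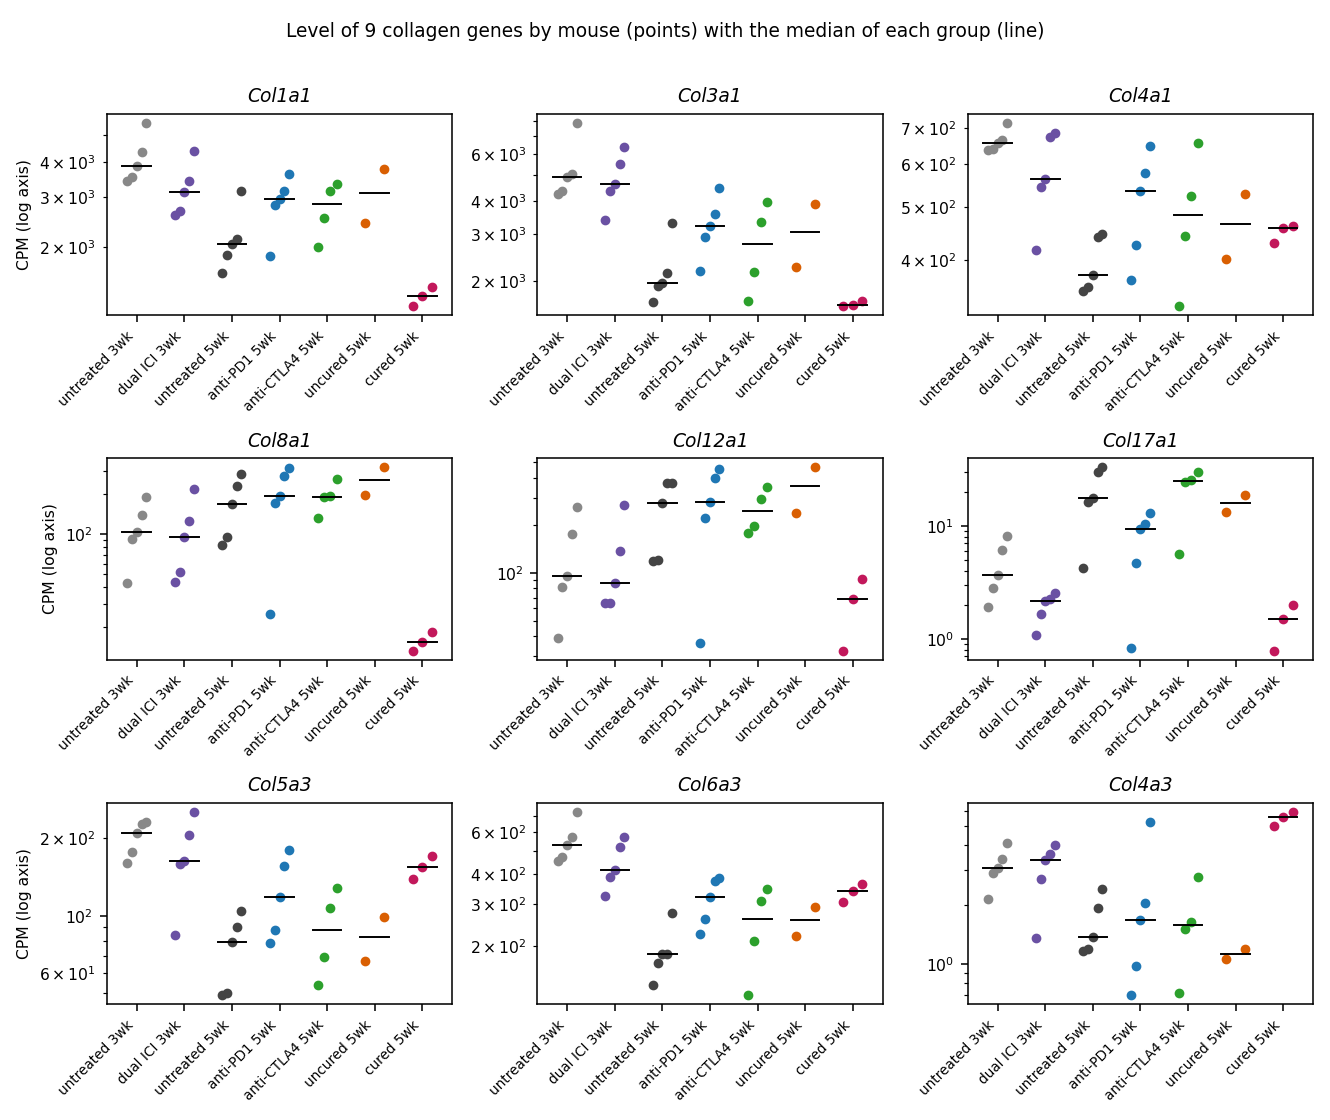
Points are the CPM of 9 collagen genes in single mice, on log axes, and lines are group medians. Col8a1 lay between 13.3 and 18.4 CPM in the cured mice and above that range in all other libraries, whereas Col4a3 lay between 5.02 and 5.93 CPM in the cured mice and reached that range elsewhere in anti-PD1 mouse 5 alone.

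The mean log2 CPM over the 11 fibrillar genes was 6.97 ± 0.57 in untreated mice at 3wk (SD, n = 5), 6.36 ± 0.35 in untreated mice at 5wk (n = 5) and 6.08 ± 0.43 in cured mice (n = 3). Over the 8 basement membrane genes it was 5.59, 4.90 and 5.15 in the same groups, and over the other class 3.60, 3.37 and 3.27. Such means weigh rare chains like common ones, and the order of cured and untreated mice at 5wk turned with the median over a class, which was 7.11 in cured and 6.16 in untreated mice for fibrillar genes and 4.86 and 5.68 for basement membrane genes. No direction is therefore read from these class values.

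The first question was how the collagen genes of treated mice compared with those of untreated mice, leaving aside the mice labelled cured under dual ICI. At 3wk, dual ICI was compared with no treatment, and 0 of 40 collagen genes were called, where edgeR called 0.574% of all genes. At an unadjusted p under 0.05 there were 5, all lower (Col9a2, Col27a1, Col17a1, Col20a1 and Col9a3), beside 10.7% of all genes. The members' median log2 fold change was −0.18 and that of all genes 0.02. DESeq2 called 4 as lower (Col10a1, Col2a1, Col27a1 and Col9a2), beside 1.08% of all genes, of which Col10a1, Col2a1 and Col9a2 are cartilage-type genes that 2 of the 5 untreated mice held at high counts. For Col27a1, a minor fibrillar chain, the CPM was 38.7, 24.6, 22.4, 40.3 and 21.4 in the untreated mice and 11.6, 11.5, 15.7, 15.2 and 23.9 under dual ICI. These values overlapped in 1 mouse of dual ICI, and the edgeR log2 difference was −0.91 ± 0.25 (SE, adjusted p = 0.160).

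At 5wk, anti-PD1 alone gave 0 called of 42 collagen genes and anti-CTLA4 alone 0 of 42, and edgeR called 0.0% of all genes in both comparisons. At an unadjusted p under 0.05 there were 4 under anti-PD1, all higher (Col6a3, Col5a3, Col5a1 and Col15a1), beside 1.31% of all genes, and 1 under anti-CTLA4 (Col2a1, higher), beside 0.811%. DESeq2 called 0 in both comparisons as well. Col6a3, a chain of type VI, had the lowest p under anti-PD1, with 376, 259, 225, 321 and 385 CPM against 277, 170.3, 185, 186 and 138 CPM in untreated mice and a log2 difference of 0.71 ± 0.23. The anti-PD1 group holds the 1 cured mouse that the labels do not identify. Its mouse 5, the library poor in epithelial genes, gave the highest value of Col6a3, and without it the difference was 0.62 ± 0.22 (edgeR adjusted p = 0.995). The members' median log2 fold change was 0.35 under anti-PD1 and 0.16 under anti-CTLA4, with −0.01 and −0.02 over all genes. Both comparisons use the same 5 untreated mice.

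The 2 uncured mice gave 0 called of 44 against untreated mice at 5wk (0.0% of all genes), 3 at an unadjusted p under 0.05 (4.87% of all genes) and 0 by DESeq2. Col15a1, a collagen of the outer basement membrane zone, stood at 180.1 and 212 CPM in the uncured mice, above all 5 untreated mice at 94.5 to 158 CPM, with a log2 difference of 0.67 ± 0.23 (SE, edgeR adjusted p = 0.734). Type I and type III chains spread widely in both groups. For Col1a1 the uncured mice stood at 2441 and 3773 CPM and the untreated mice at 3152, 1615, 1877, 2137 and 2049 CPM. The effect of dual ICI in uncured mice at 5wk minus its effect at 3wk was tested as an interaction and gave 0 called of 44 (0.0% of all genes) and 6 at an unadjusted p under 0.05 (6.35%). The 2 uncured mice were set apart by outcome, whereas the 5 dual ICI mice at 3wk were not. A difference between the time points of treatment was thus not shown, and time and outcome cannot be told apart in this contrast.

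The second question was how the cured mice differed from each other group at 5wk. Against untreated mice, 6 collagen genes were higher and 10 lower of 42, where edgeR called 18.0% of all genes as higher and 26.7% as lower. Against anti-PD1 mice 1 was higher and 7 lower of 43 (2.53% and 16.3% of all genes), against anti-CTLA4 mice 5 were higher and 14 lower of 43 (28.8% and 33.6%), and against uncured mice 8 were higher and 17 lower of 44 (33.1% and 36.9%). The share of collagen genes called lower was close to that of all genes in each comparison, and the share called higher was below it, most of all against anti-CTLA4 and uncured mice. The members' median log2 fold changes were 0.01, −0.19, −0.29 and −0.08, against −0.05 over all genes in each of the 4 comparisons. These comparisons share the 3 cured mice and are not independent. The split also depends on the scaling. On library totals without TMM the counts of higher and lower genes were 3 and 17, 1 and 22, 2 and 25, and 4 and 28. The median of all genes moved there to −0.64, −0.61, −0.68 and −0.84. No share of all genes called on library totals stands beside these counts, so they show only that the split depends on the scaling.

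**Figure D3:**
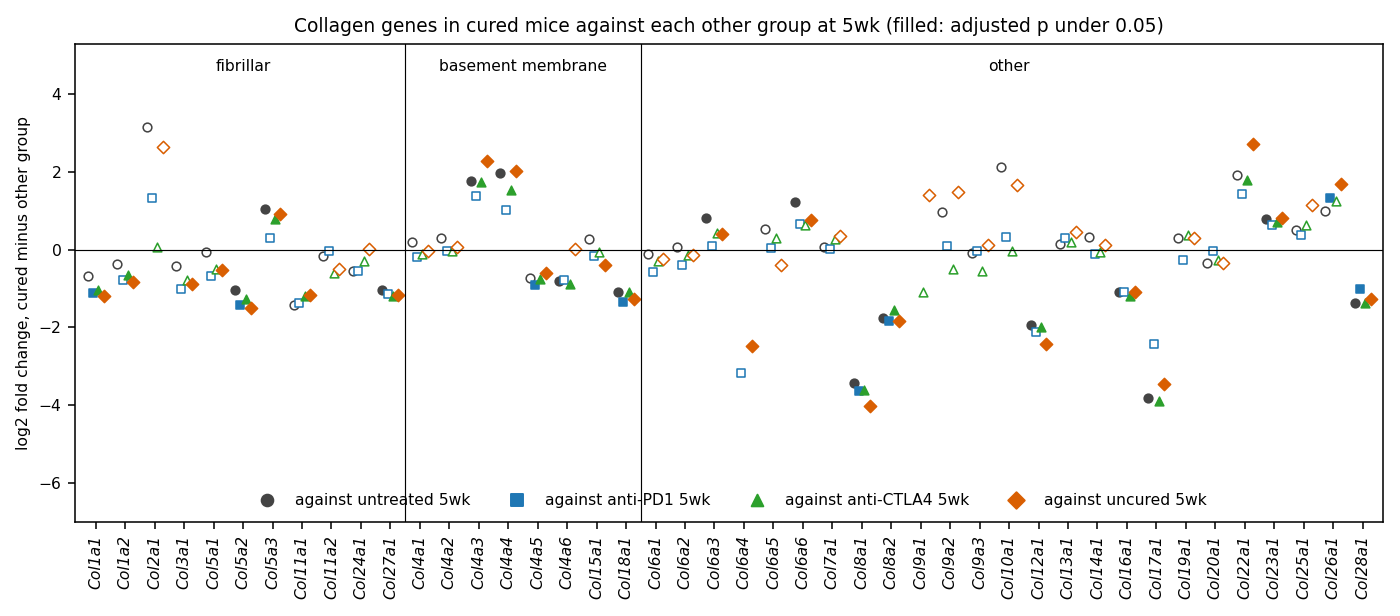
Log2 fold changes of the tested collagen genes, cured mice minus each other group at 5wk, are plotted by gene and class, with filled symbols at an edgeR adjusted p under 0.05. Col8a1 lies between −3.43 and −4.01 in all 4 comparisons, and Col4a3 and Col4a4 lie above 0 in all 4.

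Col8a1 encodes a chain of the short network collagen type VIII, known from vessel walls and from activated stroma. Its CPM was 13.3, 18.4 and 15.6 in cured mice. In untreated mice at 5wk it was 282, 83.1, 168, 95.9 and 231, under anti-CTLA4 it was 258, 193, 133 and 189, and in the uncured mice 197 and 317. The anti-PD1 mice stood at 193, 272, 315, 171 and 25.2, so that 4 of them were far above the cured mice and mouse 5 was just above them. No cured mouse overlapped with any other group, those at 3wk included, where the lowest library stood at 43.1. The log2 fold change was −3.43 ± 0.45 against untreated mice (SE, edgeR adjusted p = 0.000413), −3.64 ± 0.75 against anti-PD1 (adjusted p = 0.0403), −3.61 ± 0.25 against anti-CTLA4 (adjusted p = 4.78e-05) and −4.01 ± 0.22 against uncured mice (adjusted p = 1.28e-06). Its partner chain Col8a2 stood at 8.86, 9.11 and 9.71 CPM in cured mice and at 16.5 to 43.1 in untreated mice. It was lower by 1.76 ± 0.27 on the log2 scale against untreated mice, and was also called in the other 3 comparisons, at −1.84, −1.54 and −1.84. Anti-PD1 mouse 5 had 9.20 CPM, within the cured range. Col10a1, the third gene of this class, is a cartilage-type gene and was not called.

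Among the other genes, those that make up most of the fibrils changed less. Col1a1 stood at 1337, 1234 and 1448 CPM in cured mice and at 3152, 1615, 1877, 2137 and 2049 in untreated mice. The groups did not overlap, but the log2 fold change of −0.68 ± 0.29 missed the threshold (SE, edgeR adjusted p = 0.0832). It was called lower against anti-PD1 (−1.12 ± 0.29), anti-CTLA4 (−1.05 ± 0.24) and uncured mice (−1.20 ± 0.18). Col1a2, the partner chain of type I, was called against anti-CTLA4 (−0.66 ± 0.24) and uncured mice (−0.82 ± 0.18), and Col3a1, the chain of type III, against uncured mice (−0.89 ± 0.21). For Col3a1 the CPM was 1629.5, 1679.9 and 1605 in cured mice, against 3310.1, 1669.7, 1908, 2148 and 1963 in untreated mice, where mouse 2 fell within the cured range.

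Of the 11 fibrillar genes, 1 was higher and 2 lower against untreated mice (18.0% and 26.7% of all genes), and 1 higher and 7 lower against uncured mice (33.1% and 36.9%). The chains of type V moved apart. Col5a2 was at 131, 131 and 152 CPM in cured mice and at 418, 159.7, 276, 257 and 314 in untreated mice. These did not overlap (−1.03 ± 0.28 on the log2 scale, edgeR adjusted p = 0.0149). It was called lower against anti-PD1 (−1.43), anti-CTLA4 (−1.27) and uncured mice (−1.51) too. Col5a3 was at 171, 139 and 154 CPM in cured mice and at 90.4, 78.7, 50.1, 105 and 49.1 in untreated mice, again without overlap but in the other direction (1.06 ± 0.26, edgeR adjusted p = 0.00953). It was called higher against anti-CTLA4 (0.79) and uncured mice (0.91) and not against anti-PD1 mice (0.31 ± 0.28, adjusted p = 0.378). On library totals these 3 calls of Col5a3 ended, at 0.51 (edgeR adjusted p = 0.101), 0.20 (adjusted p = 0.443) and 0.13 (adjusted p = 0.497). Col5a1 differed by −0.52 ± 0.20 from uncured mice and was not called in the other 3. Col27a1 was lower against untreated (−1.03), anti-CTLA4 (−1.20) and uncured mice (−1.15), with 11.2 and 10.3 CPM in cured mice 3 and 4, while cured mouse 2 reached the lowest untreated mouse. Col11a1 was lower against anti-CTLA4 (−1.18) and uncured mice (−1.16).

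Basement membrane genes split in the same manner. The major chains Col4a1 and Col4a2 were not called in any of these 4 comparisons with TMM, and on library totals both were called lower in 3 of them. Col4a1 stood at 458, 429 and 462 CPM in cured mice and at 441, 351, 446, 357 and 376 in untreated mice, which overlapped, and the log2 difference was 0.20 ± 0.18. The minor pair Col4a3 and Col4a4, which share the start region printed above and are best known from the filtration membrane of the kidney, were higher. Col4a3 was at 5.93, 5.02 and 5.56 CPM in cured mice, at 1.17, 2.40, 1.93, 1.19 and 1.38 in untreated mice, at 0.711, 2.76, 1.64 and 1.51 under anti-CTLA4, and at 1.06 and 1.20 in uncured mice. It did not overlap with any of these groups, and the log2 fold changes were 1.77 ± 0.29 (edgeR adjusted p = 0.00141), 1.74 ± 0.39 (adjusted p = 0.00493) and 2.29 ± 0.25 (adjusted p = 5.16e-05). Col4a4 was at 5.41, 8.17 and 5.51 CPM in cured mice and at 0.943, 1.87, 1.32, 2.78 and 1.32 in untreated mice, higher by 1.97 ± 0.35 on the log2 scale (adjusted p = 0.00211), with 1.54 against anti-CTLA4 and 2.03 against uncured mice. Neither was called against anti-PD1, where mouse 5 had 5.25 CPM of Col4a3 and 6.03 of Col4a4 and the other 4 mice at most 2.05 and 3.11. These are rare transcripts, with 23 to 115 and 33 to 166 counts per library.

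The remaining pair of type IV, Col4a5 and Col4a6 on the X chromosome, whose starts are 1309 bases apart, went the other way. Col4a5 was at 15.1, 22.4 and 17.7 CPM in cured mice and was called lower against anti-PD1 (−0.92), anti-CTLA4 (−0.75) and uncured mice (−0.61), and Col4a6 against untreated (−0.80) and anti-CTLA4 mice (−0.89). Col18a1, a basement membrane collagen whose C-terminal fragment is endostatin, stood at 49.5, 47.0 and 42.8 CPM in cured mice, below the untreated mice at 121, 60.9, 151, 95.3 and 72.4. It was called lower in all 4 comparisons, at −1.10 ± 0.28, −1.34 ± 0.27, −1.09 ± 0.19 and −1.27 ± 0.13. Col15a1 was called against uncured mice alone (−0.40 ± 0.11), and whether that difference is larger than in the other comparisons was not tested.

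Type VI chains differed among themselves. Col6a1 and Col6a2, which form the core of the filament, were not called in the 4 comparisons with TMM, and were called lower in 3 of them on library totals, with 485, 464 and 475 CPM of Col6a1 in cured mice inside the untreated range of 353 to 705. Col6a3, the long chain of the trimer, was at 339.8, 307 and 364 CPM in cured mice and at 277, 170.3, 185, 186 and 138 in untreated mice, without overlap (0.83 ± 0.22, edgeR adjusted p = 0.0151). Col6a6, which can take the place of Col6a3, was at 13.4, 21.2 and 20.8 CPM against 5.95 to 8.93 (1.23 ± 0.21, adjusted p = 0.00171). Against uncured mice both were called higher with TMM (0.40 and 0.76), but on library totals Col6a3 was lower (−0.38, edgeR adjusted p = 0.0351) and Col6a6 stood at −0.015. The calls of both against untreated mice ended on library totals as well, at 0.22 (edgeR adjusted p = 0.506) for Col6a3 and 0.66 (adjusted p = 0.0516) for Col6a6. Col6a4 held 3, 0 and 1 counts in the cured mice and 14 and 13 in the uncured mice, too few for a fold. It passed the filter only through the uncured mice, so that nothing is read from its call, which is 1 of the 17 lower genes and was lost with DESeq2.

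Fibril-associated and transmembrane members gave some of the largest differences. Col12a1, a large collagen on fibril surfaces, was at 32.4, 68.8 and 92.5 CPM in cured mice and at 373, 119.6, 278, 120.4 and 372 in untreated mice, without overlap (−1.95 ± 0.51, edgeR adjusted p = 0.0127). It was called lower against anti-CTLA4 (−1.98) and uncured mice (−2.44), and against anti-PD1 the value was −2.11 ± 0.75 with mouse 5 at 36.1 CPM (adjusted p = 0.0697). Col16a1 was lower against untreated (−1.09), anti-CTLA4 (−1.20) and uncured mice (−1.10). Col14a1, the other main member of this class, was at 199.9, 249 and 194 CPM in cured mice and was not called. Col22a1, which is found where muscle meets tendon, was at 31.6, 25.9 and 36.5 CPM in cured mice, above the uncured mice at 4.00 and 5.48 (2.73 ± 0.21) and the anti-CTLA4 mice at 1.95 to 18.4 (1.79 ± 0.57). Against untreated mice at 1.06 to 20.8 CPM it just missed the threshold (1.92 ± 0.72, adjusted p = 0.0533). Outside the cured mice, the highest levels at 5wk were 24.9 CPM in anti-PD1 mouse 5 and 20.8 in untreated mouse 2, the libraries with 23.2% and 22.1% of their counts on muscle genes.

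Col17a1 encodes a transmembrane collagen of hemidesmosomes, the anchors of epithelial cells on the basement membrane. It was at 1.49, 0.787 and 2.00 CPM in cured mice, at 16.3, 4.22, 32.8, 17.6 and 30.2 in untreated mice, at 25.5, 5.64, 29.6 and 24.4 under anti-CTLA4 and at 18.6 and 13.3 in uncured mice. The log2 fold changes were −3.81 ± 0.66 (edgeR adjusted p = 0.00188), −3.90 ± 0.62 (adjusted p = 0.00102) and −3.46 ± 0.32 (adjusted p = 1.89e-05). Against anti-PD1, where mouse 5 stood at 0.832 CPM and the others at 4.65 to 13.1, it was −2.44 ± 0.81 (adjusted p = 0.0615). In the list of gastric epithelial genes, 10 of 11 tested genes were called lower against untreated mice and 0 higher. Under dual ICI at 3wk, however, Col17a1 stood at 2.15, 2.57, 1.09, 1.66 and 2.26 CPM, which overlapped with the cured mice. The epithelial list summed to 930 to 2743 CPM in those libraries, and its part in the values of Col17a1 was not tested. Col7a1, the collagen of the anchoring fibrils beneath such epithelia, was at 48.1, 57.7 and 42.7 CPM in cured mice and was not called in any of the 4. Col23a1, another transmembrane member, was higher against untreated (0.79), anti-CTLA4 (0.71) and uncured mice (0.82) with TMM, but on library totals all 3 calls of Col23a1 ended, at 0.26 (edgeR adjusted p = 0.267), 0.11 (adjusted p = 0.610) and 0.04 (adjusted p = 0.845). Col28a1 was at 5.15, 3.99 and 4.39 CPM in cured mice and lower in all 4 comparisons (−1.37, −1.02, −1.38 and −1.26), and Col26a1 was higher against anti-PD1 (1.33) and uncured mice (1.70), at 2.42, 2.51 and 2.44 CPM in cured mice.

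The comparison with anti-PD1 mice rested on mouse 5, which stood near the cured mice in Col8a1, Col8a2, Col12a1, Col17a1, Col4a3 and Col4a4 as well as in muscle and epithelial genes. Without it, 5 collagen genes were higher and 18 lower, where 31.9% and 36.5% of all genes were called. The 18 include Col6a4, with 3, 0 and 1 counts in cured mice and 13, 66, 9 and 11 in the other anti-PD1 mice. Nothing is read from its call here either. Leaving out any other mouse of this comparison gave 0 calls by edgeR, with 11 to 16 collagen genes at an unadjusted p under 0.05, beside 30.0% to 36.6% of all genes, and the adjusted p of the 8 called genes lay between 0.0403 and 0.0414. Without mouse 5, the log2 fold change of Col12a1 was −2.40 ± 0.38 (edgeR adjusted p = 0.000447), that of Col17a1 −2.72 ± 0.41 (adjusted p = 0.000369) and that of Col4a3 2.02 ± 0.34 (adjusted p = 0.000644). With all 5 dual ICI mice at 5wk as 1 group, which is what the labels alone give, 0 of 41 collagen genes were called by edgeR against untreated mice, with 9 at an unadjusted p under 0.05, beside 6.87% of all genes.

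The ratio of partner chains within a library does not depend on its scaling. The log2 ratio of Col1a1 to Col1a2 counts was −0.17 ± 0.07 in cured mice (SD, n = 3), with −0.10 as the highest, and lay above in all 26 other libraries, the lowest of which stood at −0.03. Group means elsewhere were 0.07 to 0.25. The ratio of Col5a1 to Col5a2 was 0.84 ± 0.12 in cured mice, with 0.74 as the lowest, and at most 0.67 in the other 26 libraries. The ratio of Col6a3 to Col6a1 was −0.50 ± 0.11 in cured mice, −0.65 ± 0.11 in untreated mice at 3wk and −1.44 ± 0.26 in untreated mice at 5wk, and anti-PD1 mouse 5 stood at −0.36. Col4a1 to Col4a2, the pair that overlaps at its starts, had group means of 0.45 to 0.72, and Col6a1 to Col6a2 of 0.33 to 0.51. The cured mice had the lowest mean in both, but overlapped with other libraries. Col4a4 to Col4a3, the rare pair that also shares a start region, ranged from −0.55 to 1.61 over all libraries. These ratios are descriptions and were not tested.

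The third question was how the collagen genes changed with time without treatment. Of 42 collagen genes, 1 was higher and 14 lower in untreated mice at 5wk than at 3wk, where edgeR called 6.24% of all genes as higher and 4.58% as lower. The members' median log2 fold change was −0.50, and that of all genes 0.02. Fibrillar genes were lower in 4 of 11, basement membrane genes in 5 of 8 and the other class in 5 of 23, and the single higher gene was Col17a1. On library totals without TMM, 1 was higher and 8 lower, with a median of all genes of 0.11. The calls of Col1a1, Col4a1, Col4a2, Col5a1, Col6a2 and Col6a5 ended there. No share of all genes stands beside the counts on library totals. The fibroblast list moved with time as well, with 0 genes higher and 3 lower of 8 and a mean summed level of 1071 CPM at 3wk and 645 at 5wk, as did the pericyte list, with 0 and 2 of 5 and 463 and 281 CPM. Of the other lists, 0 genes were higher and 1 lower in each of the lists of 6 mesothelial, 6 adipocyte, 7 endothelial and 22 muscle genes, and 1 higher and 1 lower among 6 activated fibroblast or smooth muscle genes. Their part in the collagen values was not tested. Time and sequencing series cannot be told apart here.

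**Figure D4:**
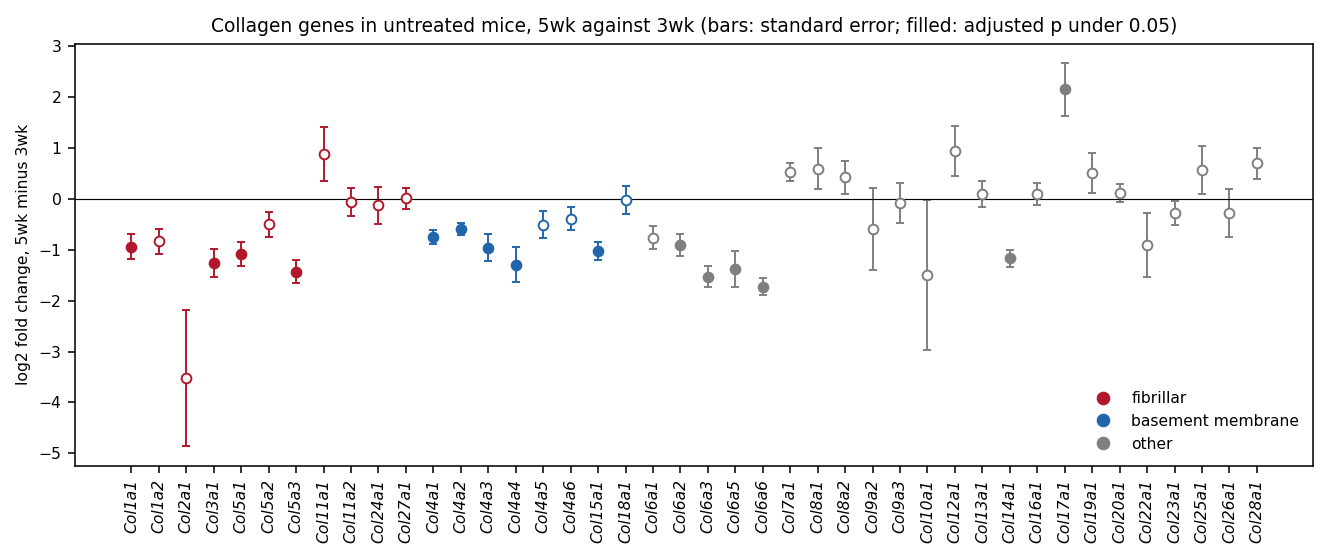
Points are log2 fold changes of collagen genes in untreated mice, 5wk minus 3wk, with standard errors, filled at an edgeR adjusted p under 0.05 and coloured by class. Most filled points lie below 0, with Col6a6 at −1.73 as the lowest, and Col17a1 at 2.15 is the filled point above 0.

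The type VI chains Col6a6 and Col6a3 fell furthest among the called genes. Col6a6 was at 20.2, 30.2, 25.4, 32.5 and 22.6 CPM at 3wk and at 8.63, 8.61, 8.93, 7.44 and 5.95 at 5wk (−1.73 ± 0.17, edgeR adjusted p = 0.00140). Col6a3 was at 576, 530.0, 471, 731 and 456 CPM at 3wk and at 277, 170.3, 185, 186 and 138 at 5wk (−1.53 ± 0.20, adjusted p = 0.00434). Neither overlapped between the time points. Col6a5 and Col6a2 were lower by 1.38 ± 0.35 and 0.91 ± 0.22 on the log2 scale, and Col6a1, at −0.76 ± 0.23, missed the threshold (adjusted p = 0.0516).

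Of the fibrillar chains, Col3a1 was at 4934, 5042, 4243, 7865 and 4353 CPM at 3wk and at 3310.1, 1669.7, 1908, 2148 and 1963 at 5wk, without overlap (−1.27 ± 0.27, edgeR adjusted p = 0.0187). Col1a1 fell from 4338, 3872, 3551, 5499 and 3428 CPM to 3152, 1615, 1877, 2137 and 2049 (−0.94 ± 0.25, adjusted p = 0.0355), and Col1a2, at −0.83 ± 0.25, missed the threshold (adjusted p = 0.0527). The minor chain Col5a3 fell by 1.43 ± 0.23 on the log2 scale and Col5a1 by 1.09 ± 0.24, while Col5a2 differed by −0.50 ± 0.25 and was not called. In the basement membrane class Col4a1 was at 665, 655, 639.6, 714 and 638 CPM at 3wk, a narrow range, and at 441, 351, 446, 357 and 376 at 5wk (−0.75 ± 0.14, adjusted p = 0.00968). Col4a2, Col4a3, Col4a4 and Col15a1 were lower too, by 0.59, 0.96, 1.29 and 1.02. Col14a1, a fibril-associated collagen, lay at 325 to 451 CPM at 3wk and at 128 to 217 at 5wk (−1.16 ± 0.17, adjusted p = 0.00547).

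Col17a1 was at 1.92, 3.64, 8.20, 2.83 and 6.07 CPM at 3wk and at 16.3, 4.22, 32.8, 17.6 and 30.2 at 5wk (2.15 ± 0.52, edgeR adjusted p = 0.0271). Mouse 2 at 5wk fell within the range of 3wk. The gastric epithelial list summed to 849 to 2486 CPM at 3wk and to 1155 to 3925 at 5wk, with 2 of 11 tested genes called higher and 0 lower, and its part in the rise of Col17a1 was not tested. Untreated mouse 5 at 5wk and untreated mouse 1 at 3wk carried weight: without them 7 and 8 collagen genes were called in place of 15.

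The genes that make, modify and bind collagen were counted from fixed lists. Of 28 genes of chain maturation and crosslinking, 7 were higher and 11 lower in cured than in untreated mice, where 18.0% and 26.7% of all genes were called. The lower ones included P4ha3, a prolyl hydroxylase subunit (−2.17 ± 0.34), Plod3, a lysyl hydroxylase (−1.94 ± 0.22), and Lox, the lysyl oxidase that crosslinks fibrils (−1.30 ± 0.21), and the higher ones Colgalt2, which adds galactose to hydroxylysine (2.07 ± 0.30), Pcolce2, an enhancer of propeptide cleavage (1.54 ± 0.26), and P3h2, a prolyl 3-hydroxylase (1.17 ± 0.24). Of 9 collagen-binding receptors, 2 were higher and 5 lower, with Itga2, an integrin subunit of epithelia and platelets, at −3.32 ± 0.69, Lair1, an inhibitory receptor of immune cells, at −1.77 ± 0.42, Itga11, an integrin subunit of fibroblasts, at 1.45 ± 0.16, and the receptor kinase Ddr2 at 0.69 ± 0.22. Of 12 proteoglycans and glycoproteins that bind fibrils, 2 were higher (Ogn, 1.75 ± 0.25, and Tnxb, 1.08 ± 0.23) and 2 lower (Thbs1, −2.35 ± 0.41, and Bgn, −1.63 ± 0.23). With time in untreated mice the counts were 0 higher and 7 lower of 28, 0 and 1 of 9, and 0 and 3 of 12, beside 6.24% and 4.58% of all genes. No gene of these lists was called by edgeR in the comparisons of dual ICI at 3wk or of anti-PD1, anti-CTLA4 or uncured mice at 5wk with untreated mice. At an unadjusted p under 0.05, 3 genes of maturation and 2 receptors were found under dual ICI at 3wk, beside 10.7% of all genes, and 3 genes of maturation under anti-PD1, beside 1.31%.

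A last pattern crossed the groups. Col2a1, Col9a1, Col9a2 and Col10a1, collagens of cartilage and of growth plates, were at low counts in most mice and abundant in some. Col10a1 was above 200 counts in 8 libraries from 6 groups: anti-PD1 mouse 4 with 1966, anti-CTLA4 mice 2 and 3 with 1370 and 479, uncured mouse 1 with 350, cured mouse 2 with 1040, untreated mouse 4 at 5wk with 324, and untreated mice 1 and 2 at 3wk with 938 and 679. In these 8 libraries Col2a1 had at least 45 counts and Col9a2 at least 37, whereas the other 21 libraries had at most 34 and 33. Acan, the main proteoglycan of cartilage, had at least 231 counts in the 8 and at most 368 in the 21, so that it overlapped. No library of dual ICI at 3wk was among the 8, and their highest count of Col10a1 was 5. Values of these genes therefore depended on single libraries within every group that held one. In the edgeR comparisons above that included them, their differences between groups were not called. Of the 9 comparisons between groups, Col9a2 was tested in 9, Col10a1 and Col2a1 in 8 each, and Col9a1 in 3. Col10a1 and Col2a1 did not pass the edgeR filter for dual ICI against untreated mice at 3wk. DESeq2 called both, and Col9a2, as lower there. The libraries were set apart by Col10a1 after its counts were seen.

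**Figure D5:**
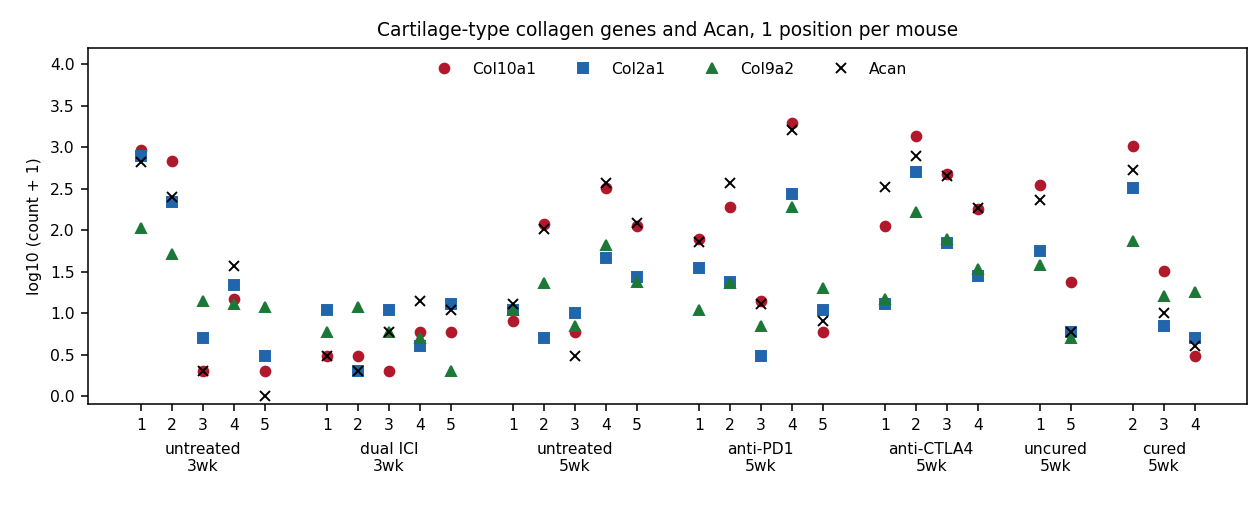
Each position is 1 mouse and shows log10 of the count plus 1 for Col10a1, Col2a1, Col9a2 and the cartilage proteoglycan gene Acan. The high libraries are single mice in 6 groups, led by anti-PD1 mouse 4 with 1966 counts of Col10a1, and dual ICI at 3wk has none.

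Of the 44 members, 40 were tested in all 9 comparisons between groups, 31 were called in at least 1 and 13 in none. The share of all genes called in at least 1 comparison is not given, so nothing about collagen genes is read from these counts. For cured against uncured mice alone, edgeR called 33.1% of all genes as higher and 36.9% as lower. For 12 of the 44 members the median count over the libraries was under 100: Col9a1, Col6a4, Col2a1, Col25a1, Col9a2, Col10a1, Col19a1, Col26a1, Col13a1, Col9a3, Col4a3 and Col4a4. Of these Col9a1 and Col6a4 reached 0 in at least 1 library, with highest counts of 86 and 66. For 19 members the median was 1000 or more. The exons of 13 members overlap those of another gene in the GENCODE annotation of GRCm38, among them Col4a1 with Col4a2 over 22 bases and Col4a3 with a transcript on the other strand over 563 bases, and since no source used here says whether strand was used in counting, such counts may hold reads of the other gene.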

How the data were processed

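RNA-seq of 29 libraries, 1 per mouse, was analysed. What the authors deposited is a table of whole-number counts for each gene, not normalized. By the study's methods the authors aligned 150 bp paired-end reads to mm10 with STAR 2.5.2b and counted with HTSeq 0.6.1, whereas the submitters' processing notes name STAR 2.7.0f and featureCounts 1.6.4, and neither gives the strand setting. Totals of 25989217 to 31219650 counts set the precision.

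From these counts, tests were run on the whole table with edgeR 4.0.16 in R 4.3.3 (TMM, filterByExpr with the groups, then glmQLFit with glmQLFTest), two-sided, with Benjamini-Hochberg adjustment over all genes and a threshold of 0.05, with the groups compared alone in a fit. Shares, class means (log2 CPM, prior count of 2, genes with at least 10 counts in 4 libraries) and ratios have no test. Tables and figures used pandas 2.3.3, numpy 2.4.6, scipy 1.17.1 and matplotlib 3.10.9. On simulated counts with 200 genes changed 4-fold up or down, edgeR recovered 100.0% in 5 mice against 5, 97.5% in 3 against 5 and 94.0% in 2 against 5, with 6, 10 and 7 false calls. This says nothing of smaller changes or of genes that spread more between mice. In the data, Col12a1 and Col17a1 differed by over 4-fold between cured and anti-PD1 mice and missed the threshold. All 44 symbols matched GENCODE on GRCm38 for positions and exon length.

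The members, lists and rules were chosen with earlier results of these data known. Named genes are the main stromal, basement membrane and cartilage-type members, and the 5 with the largest change in each direction per comparison. Alternatives were DESeq2 1.42.0, RLE factors, no filter, at least 10 counts in every library, no skeletal muscle genes, 1 fit of 29 libraries, a block for the replicate number, the omission of each mouse in turn, and the 5 dual ICI mice at 5wk as 1 group. Library totals without TMM and the interaction were added after the values were seen. P-values set the difference between groups against the spread between mice of a group. The replicate numbers did not pair the mice, since in no comparison did every pair correlate above 0.1.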

Additional observations from a re-analysis of the deposited data

Results flagged for a closer look

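In 165 sets of values (a gene, share or ratio in a group of 4 or 5 mice), 17 had 1 mouse that stood apart from the rest by Dixon's test, where chance gives about 1 in 20. Untreated mouse 4 at 3wk was high in Col3a1 (7865 CPM, others at most 5042), Col4a5 (60.5, others at most 42.2) and Col18a1 (163, others at most 100.4). It also had the largest share of counts on collagen genes. Dual ICI mouse 5 at 3wk was high in Col18a1 (105 CPM, others at most 69.7) and in the log2 ratio of Col1a1 to Col1a2 (0.29, others at most 0.05), and untreated mouse 1 at 5wk was high in Col1a2 (2909.5 CPM, others at most 1856).

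Cartilage-type genes set apart anti-PD1 mouse 4 with 8.82 CPM of Col2a1, 1.32 of Col9a1 and 63.1 of Col10a1, anti-CTLA4 mouse 2 with 18.7 CPM of Col2a1, untreated mouse 1 at 3wk with 2.73 CPM of Col9a1, and untreated mouse 4 at 5wk with 0.716 CPM of Col9a1.

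Anti-PD1 mouse 5 was low in the share of counts on collagen genes (0.656%, others at least 1.49%), on fibrillar genes (0.445%) and on the other class (0.125%). Its log2 ratio of Col6a1 to Col6a2 was low (0.34, others at least 0.52), and that of Col6a3 to Col6a1 was high (−0.36, others at most −1.24). This library held 23.2% of its counts on skeletal muscle genes, and the part of that content in these values was not tested.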

How the results depend on the processing

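In single genes, the called differences kept their direction and call in 597 results under the alternatives other than leaving out a mouse, lost the call in 39 and turned in 2, both against uncured mice on library totals without TMM (Col6a3 at −0.38 and Col6a6 at −0.015), where the median of all genes itself fell by 0.84 on the log2 scale. With each mouse left out, 447 kept the call and 153 lost it. The number of called collagen genes moved by over 1.5 times in the following. No share of all genes stands beside the counts in this section, so they describe the dependence on processing alone. For dual ICI at 3wk it was 4 with DESeq2 and 1 with the replicate block (Col9a2). For cured against anti-PD1 mice it was 23 on library totals, 18 with DESeq2, 17 in 1 fit of all libraries, 25 with the replicate block, and 0 to 23 with each mouse left out. For cured against uncured mice it was 16 in 1 fit of all libraries, and for untreated mice over time 9 on library totals and 7 to 18 with each mouse left out. With all 5 dual ICI mice as 1 group it was 0 against untreated mice. The counts in single genes, above and below, leave out that grouping. Under every other alternative run, 7 of 16 calls held against untreated mice (Col12a1, Col16a1, Col17a1, Col4a3, Col4a4, Col8a1 and Col8a2). So did 0 of 8 against anti-PD1, 12 of 19 against anti-CTLA4, 15 of 25 against uncured mice, and 5 of 15 over time (Col14a1, Col15a1, Col5a3, Col6a3 and Col6a6). The cause of these shifts was not tested.

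With the replicate number as a block, 5 genes were higher and 8 lower in cured than in untreated mice, 6 and 17 against anti-CTLA4, and 1 and 14 over time, while anti-PD1, anti-CTLA4 and uncured mice against untreated mice kept 0. Cured and uncured mice share no number, so that no block could be fitted there. The share of counts on collagen genes in cured mice was 0.733% without muscle genes in the total. With the median in place of the mean over a class, fibrillar genes stood at 7.64 (untreated 3wk), 7.35 (dual ICI 3wk), 6.34 (uncured) and 7.11 (cured), basement membrane genes at 6.02 (untreated 3wk), 5.68 (untreated 5wk), 5.95 (anti-PD1), 5.77 (anti-CTLA4), 5.82 (uncured) and 4.86 (cured), and the other class at 3.47 (dual ICI 3wk) and 3.56 (cured).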
